A study of Mus musculus with 12 samples.

Results

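Hmgcs1, Mvd, Idi1, Fdps, Fdft1, Sqle, Lss and Cyp51 encode enzymes of the mevalonate and sterol synthesis pathway. They were taken by gene symbol from a list of pathway enzymes drawn up with earlier results of these data known, and all 8 were found among the 21754 Ensembl genes of the count table and had a mean count of 1 or more, the minimum for testing. Their transcripts were followed in bulk RNA-sequencing libraries of wild-type C57BL/6 mouse marrow, with 4 sorted populations, 3 libraries each, and no treatment or age in the labels. Pre-cDCs are the precursors of conventional dendritic cells and were sorted as Siglec-H- cells. The CD11c+ Siglec-H+ CCR9 low fraction was split by B220 into lo-lo (B220 low) and lo-hi (B220 high) precursors, and plasmacytoid dendritic cells (pDCs) were sorted as CCR9 high B220 high cells. Marrow had been depleted of cells carrying lineage antigens, CD3, Ly6G, NK1.1 and Ter119 among them. The sources describe the libraries both as coming from individual mice and, for sorting in general, from pooled mice, so that p-values measure the spread between these libraries.

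The wells were assigned to populations by a rank match and not by the deposited labels, since these disagree. Values of 28 transcription factors listed by the study for 12 named samples ranked all 378 gene pairs as 1 well did, for each of the 12 samples, while every other well ranked at least 7 pairs otherwise. By this match wells A1, A5 and A9 are pre-cDC, A2, A6 and A10 lo-lo, A3, A7 and A11 lo-hi, and A4, A8 and A12 pDC. The deposited label names another population for 8 of the 12 wells. With libraries grouped by the deposited labels, edgeR called 0 of the 8 genes and 0 of all genes across the 4 populations (DESeq2 was not run on that grouping), and at an unadjusted p under 0.05 it took in 0 of the 8 and 166 of 15293 genes. Every direction below therefore rests on the match. None of the 8 enzyme genes is among the 28 matched genes.

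Total counts ran from 1801463 to 5995971 per library, so that 3 counts come to 0.5 to 1.67 counts per 1000000 (CPM). The 6 pDC markers (Siglech, Ccr9, Ly6d, Bst2, Klra17 and Cd8a) all passed the test over the 4 populations, and their summed level ran from 1055 to 1543 CPM in pre-cDC and from 7034 to 7570 in pDC. Of the 6 pre-cDC markers, Csf1r, Cx3cr1, Zbtb46, Cd209a and Itgax passed, as did 19.9% of all genes. In pDC 4 of the 6 were called lower than in pre-cDC and 0 higher (10.4% and 11.4% of all genes). The markers did not all fall at each step. In lo-lo 3 were called lower than in pre-cDC and 1 higher (237 and 246 of all 15293 genes). In pDC 5 were called lower than in lo-lo and 1 higher (1082 and 1026 of all 15293 genes). Their summed level was 651.5 to 1005 CPM in pre-cDC, 384.4 to 437.5 in lo-hi and 380.1 to 440.6 in pDC. Zbtb46 is among the 28 genes of the rank match and is no independent check of the groups. Transcripts taken as markers of cells outside the sort were present, and which cells they came from was not tested. The 7 granulocyte markers summed to 3164 to 20110 CPM over the 12 libraries, with the 3 pDC libraries at 3164 to 6426, and 4 basophil and mast cell markers reached 828 in pre-cDC against at most 197 elsewhere. Neither list had a gene called by edgeR over the 4 populations, with 1 of 7 and 3 of 4 under an unadjusted p of 0.05 and 1 and 3 called by DESeq2. Their part in the results below was not tested. Y-linked Ddx3y lay at 19.6 to 62.9 CPM in the 4 libraries numbered 3 and at or below 3.62 in the other 8. Library number and these transcripts thus moved together in every population. A fit with the library number as a block left the counts of called enzyme genes as they were, as given further below. The part of the Y-linked transcripts apart from library number was not tested.

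Cells build cholesterol from acetyl-CoA. Hmgcs1 makes HMG-CoA, mevalonate is formed from it, and mevalonate is then activated and decarboxylated to isoprene units that Idi1 and Fdps assemble into farnesyl diphosphate. Fdft1 (squalene synthase) commits this intermediate to sterols, Sqle and Lss turn squalene into lanosterol, and Cyp51 removes the methyl group at carbon 14 of lanosterol. The genes are classical targets of SREBP2, a transcription factor held at the endoplasmic reticulum by Scap and Insig proteins when sterols are plentiful.

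Coordinates are those of the GRCm38 build. Hmgcs1 (ENSMUSG00000093930) spans chr13:119690379-119708260 and Idi1 (ENSMUSG00000058258) chr13:8885501-8892451, both on the plus strand. Lss (ENSMUSG00000033105) lies at chr10:76531588-76557138 and Sqle (ENSMUSG00000022351) at chr15:59315077-59331192 on the plus strand. Mvd (ENSMUSG00000006517, chr8:122433601-122443422), Fdps (ENSMUSG00000059743, chr3:89093588-89101959), Fdft1 (ENSMUSG00000021273, chr14:63145150-63179578) and Cyp51 (ENSMUSG00000001467, chr5:4081145-4104746) lie on the minus strand. All 8 are annotated as protein-coding genes.

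RefSeq promoter windows on GRCm38.p6 were matched by symbol for 5 of the 8 genes (Hmgcs1, Mvd, Idi1, Lss and Cyp51) and not for Fdps, Fdft1 and Sqle. The 250 bases before the start were searched on both strands for the sterol regulatory element in the spelling TCACNCCAC. The CCAAT box (CCAAT) that NF-Y binds and the E-box CACGTG were searched for as well. Other spellings of the sterol regulatory element were not searched for, so that a window without TCACNCCAC may still hold one. TCACNCCAC was found in Hmgcs1 alone of the 5, and 1.05% of 32851 such windows of all genes hold it. CCAAT was found in all 5, and 33.8% of all windows hold it. In Idi1 and Cyp51 the matches touch the 105 and 49 bases next to the start that are annotated as exon, and the bases further out hold none. CACGTG was found in none of the 5 and in 6.02% of all windows. The 3 windows below are shown because they set 2 genes called higher in pDC than in pre-cDC (Hmgcs1 and Lss) beside 1 that did not pass the test (Mvd). They are written along the gene's own strand and end before the annotated exon, and capitals mark the motif matches, with ATTGG being CCAAT read on the other strand.
Hmgcs1, chr13:119690101-119690350, plus strand: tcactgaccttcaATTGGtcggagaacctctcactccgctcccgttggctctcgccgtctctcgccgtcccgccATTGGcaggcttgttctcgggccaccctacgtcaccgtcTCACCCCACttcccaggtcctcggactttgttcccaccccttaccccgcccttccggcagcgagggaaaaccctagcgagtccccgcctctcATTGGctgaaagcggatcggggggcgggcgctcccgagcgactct
Lss, chr10:76531355-76531587, plus strand: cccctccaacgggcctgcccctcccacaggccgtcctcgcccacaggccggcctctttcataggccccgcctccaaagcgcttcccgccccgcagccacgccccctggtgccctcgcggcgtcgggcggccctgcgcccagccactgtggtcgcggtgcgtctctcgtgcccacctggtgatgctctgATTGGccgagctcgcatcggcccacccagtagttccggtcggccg
Mvd, chr8:122443423-122443672, minus strand: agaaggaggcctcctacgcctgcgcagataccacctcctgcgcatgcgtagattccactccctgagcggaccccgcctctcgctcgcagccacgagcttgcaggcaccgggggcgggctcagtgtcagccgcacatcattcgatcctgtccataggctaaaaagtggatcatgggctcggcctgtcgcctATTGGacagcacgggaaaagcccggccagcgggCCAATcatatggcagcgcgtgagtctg
Hmgcs1 thus carries 1 match to the sterol regulatory element and 3 CCAAT boxes, Lss carries 1 CCAAT box and Mvd carries 2. A match is a description of these letters and shows no binding.

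Across the 4 populations, edgeR's quasi-likelihood test called 4 of the 8 genes at an adjusted p under 0.01, with 19.9% of all 15293 genes tested called. They were Hmgcs1 at the entry to the pathway and the consecutive enzymes Fdft1, Sqle and Lss on its sterol branch. All 4 were lowest in pre-cDC. The count was 2 without pre-cDC 3 and 3 or 4 without any other single library. Mvd, Idi1, Fdps and Cyp51 did not pass, with adjusted p = 0.17, 0.43, 0.69 and 0.091. In bulk RNA a lower level can mean fewer cells that carry the transcript or less RNA in each cell, and these cannot be told apart. Values are CPM after TMM scaling throughout, and levels were compared between populations and not between genes, since SCRB-seq reads mostly the 3' end of transcripts.

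**Figure D1:**
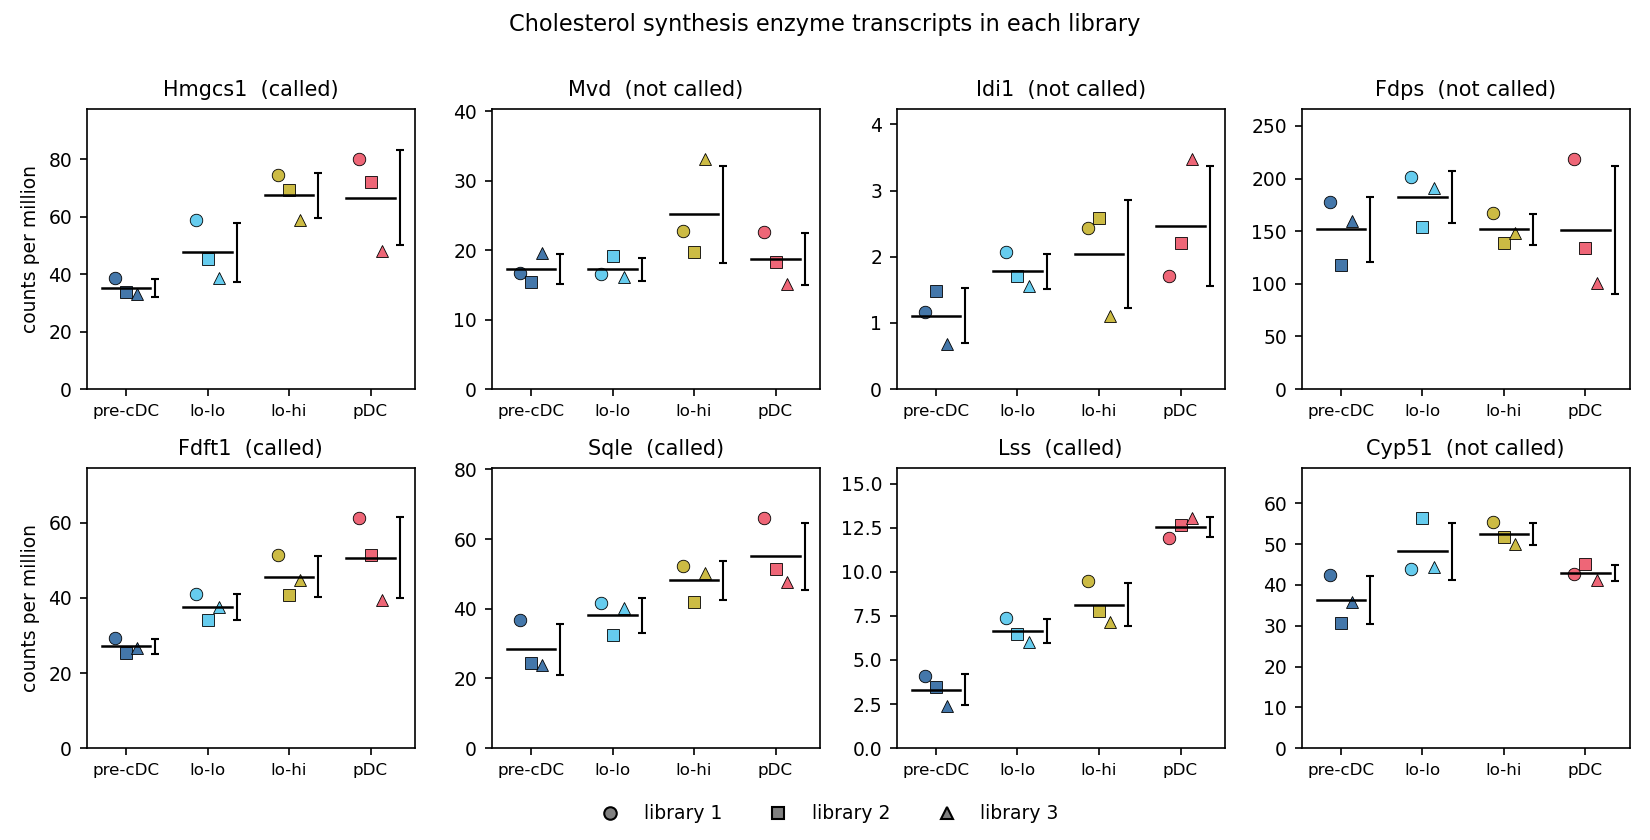
Counts per 1000000 (CPM) of the 8 enzyme genes in 12 libraries (vertical axes from 0, with a scale of their own per gene; horizontal axes give the sorted population). Symbols are libraries 1 to 3, horizontal bars the mean of 3 and vertical bars the SD around it, and titles say whether edgeR called the gene over the 4 populations. The pDC libraries of Hmgcs1, Fdft1, Sqle and Lss all lie above the pre-cDC libraries, and those of Fdps overlap with every population. Hmgcs1, Mvd and Cyp51 have their highest mean in lo-hi.

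Hmgcs1, which condenses acetyl-CoA with acetoacetyl-CoA to HMG-CoA, lay at 38.7, 33.7 and 33.1 CPM in the pre-cDC libraries 1 to 3. It lay at 58.8, 45.4 and 38.6 in lo-lo, at 74.4, 69.3 and 59.0 in lo-hi and at 80.0, 72.0 and 48.2 in pDC. Every lo-hi and pDC library stood above every pre-cDC library, whereas the lo-lo libraries overlapped pre-cDC at their lower end and pDC 3 fell inside the lo-lo range. The level was 1.91-fold higher in pDC than in pre-cDC (log2 fold change 0.93 ± 0.20 (SE), adjusted p = 0.000516) and 1.93-fold higher in lo-hi than in pre-cDC (0.95 ± 0.20, adjusted p = 0.000876). Between lo-hi and pDC the log2 difference was -0.01, with a 95% interval of -0.40 to 0.38. The antisense gene Gm48342 overlaps Hmgcs1 exons and has no row in the table.

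Fdft1, squalene synthase, lay at 29.3, 25.3 and 26.7 CPM in pre-cDC, 41.0, 34.1 and 37.5 in lo-lo, 51.5, 40.9 and 44.6 in lo-hi and 61.1, 51.5 and 39.5 in pDC. All 9 libraries of the other populations stood above the 3 pre-cDC libraries. It rose 1.89-fold from pre-cDC to pDC (log2 0.92 ± 0.18, adjusted p = 0.000267) and 1.69-fold from pre-cDC to lo-hi (0.76 ± 0.18, adjusted p = 0.00357). The last 774 bases of the Fdft1 gene overlap the end of Ctsb, a lysosomal protease gene on the opposite strand that went from 1099 ± 153 to 3366 ± 497 CPM (SD, n = 3) between pre-cDC and pDC. The sources used here do not state whether reads were counted by strand, so that reads of both genes in this stretch cannot be told apart and the value of Fdft1 is uncertain.

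Sqle, squalene epoxidase, catalyses the oxygen-requiring step that is also a control point of the pathway. Its pre-cDC libraries lay at 36.9, 24.3 and 24.0 CPM, lo-lo at 41.6, 32.4 and 40.2, lo-hi at 52.3, 41.9 and 50.1, and pDC at 65.9, 51.5 and 47.7. The lo-lo library 2 fell below pre-cDC 1, while all lo-hi and pDC libraries stood above all pre-cDC and lo-lo libraries. The level was 1.93-fold higher in pDC than in pre-cDC (log2 0.95 ± 0.19, adjusted p = 0.000353) and 1.69-fold higher in lo-hi (log2 0.75 ± 0.20, adjusted p = 0.00656).

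Lss, lanosterol synthase, closes the sterol ring system. It had the lowest counts of the 4, with 7 to 70 per library. In CPM it lay at 4.10, 3.47 and 2.37 in pre-cDC, 7.38, 6.48 and 6.03 in lo-lo, 9.50, 7.76 and 7.17 in lo-hi and 11.9, 12.6 and 13.02 in pDC. The pDC libraries stood above all 9 others, and the pre-cDC libraries below all 9 others. Lss was 3.71-fold higher in pDC than in pre-cDC (log2 1.89 ± 0.28, adjusted p = 6.27e-06) and 2.502-fold higher in lo-hi than in pre-cDC (1.32 ± 0.30, adjusted p = 0.00199). It also passed between pDC and lo-lo (1.88-fold, log2 0.91 ± 0.24, adjusted p = 0.00612), as the only gene of the 8. DESeq2 did not call that difference, and neither did edgeR without the filter on low counts, without any 1 of the lo-lo or pDC libraries, or without lo-hi 1. An antisense gene, 4930483K19Rik, overlaps Lss exons and has no row in the table.

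Cyp51, lanosterol 14-alpha-demethylase, followed another order. It lay at 42.5, 30.7 and 35.8 CPM in pre-cDC, 44.0, 56.3 and 44.4 in lo-lo, 55.4, 51.7 and 50.1 in lo-hi and 42.6, 45.2 and 41.2 in pDC. The lo-hi libraries stood above all pre-cDC and all pDC libraries, and the pDC libraries overlapped pre-cDC. None of the 6 comparisons between pairs of populations passed 0.01. The smallest adjusted p was 0.0289, between lo-hi and pre-cDC (log2 0.52 ± 0.17), and pDC over pre-cDC was at 0.23 with a 95% interval of -0.12 to 0.58. The last 166 bases of Cyp51 overlap the end of Akap9, which lies on the opposite strand and measured 40.5 ± 13.5 CPM in pre-cDC and 76.6 ± 13.6 in pDC (SD, n = 3). As with Fdft1, reads of both genes in this stretch cannot be told apart, so that the value of Cyp51 is uncertain.

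Mvd, which decarboxylates mevalonate diphosphate to isopentenyl diphosphate, lay at 16.7, 15.4 and 19.6 CPM in pre-cDC and at 16.5, 19.1 and 16.1 in lo-lo. It lay at 22.8, 19.7 and 33.1 in lo-hi and at 22.7, 18.3 and 15.2 in pDC. All lo-hi libraries stood above all pre-cDC libraries, library 2 narrowly and library 3 by the most, while lo-lo and pDC overlapped pre-cDC. The log2 difference of pDC over pre-cDC was 0.14 (95% interval -0.30 to 0.59) and that of lo-hi over pre-cDC 0.52 ± 0.22 (adjusted p = 0.098). Mvd lies inside the span of Gm20388, a gene on the other strand with 14035 to 60627 counts per library that shares no exon with it.

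Fdps, farnesyl diphosphate synthase, stands at the branch point to sterols, ubiquinone, dolichol and prenylated proteins. Its libraries lay at 178, 118 and 159 CPM in pre-cDC, 202, 154 and 191 in lo-lo, 167, 139 and 148 in lo-hi and 218, 134 and 101 in pDC. The populations overlapped in every pair, and the pDC libraries alone held both the highest and the lowest of the 12 values. The log2 difference of pDC over pre-cDC was -0.001 with a 95% interval of -0.46 to 0.46, and no pair of populations passed the test. The gene Gm43738 overlaps Fdps exons on the same strand and has no row in the table.

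Idi1, isopentenyl diphosphate isomerase, gave 2 to 11 counts per library. Its levels of 1.17, 1.49 and 0.676 CPM in pre-cDC, 2.07, 1.71 and 1.56 in lo-lo, 2.43, 2.59 and 1.102 in lo-hi and 1.703, 2.21 and 3.47 in pDC lie near the 0.5 to 1.67 CPM that 3 counts amount to. All pDC libraries stood above all pre-cDC libraries. The log2 difference was 1.06 with a 95% interval of -0.06 to 2.19 (adjusted p = 0.15), so that a change as large as that of Hmgcs1 was not detectable at this depth. Gm48574, on the opposite strand and without a row in the table, overlaps an Idi1 exon.

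Between pre-cDC and pDC, edgeR called 4 of 8 higher and 0 lower, with 11.4% of all genes called higher and 10.4% lower. In 5 of the 8, all 3 pDC libraries stood above all 3 pre-cDC libraries, as they did in 21.5% of all genes. The median log2 fold change was 0.92 over the 8 genes and 0.05 over the 15293 genes, and the range ran from -0.001 (Fdps) to 1.89 (Lss). Lss exceeded 94.0% of all genes in this value, Hmgcs1, Fdft1 and Sqle 83.0% to 83.7%, and Fdps 47.4%. Between pre-cDC and lo-hi, all 3 lo-hi libraries stood higher in 6 of 8 (18.1% of all genes), and 4 of 8 were called higher (6.76%). The latter count rested on single libraries, being 2 without pre-cDC 2, 1 without pre-cDC 3 and 0 without lo-hi 1. Between lo-lo and pDC, 1 of 8 was called higher (6.71%). The count for pDC over pre-cDC was 4 without any 1 library, but 2 without the pair pre-cDC 1 and pre-cDC 2, which held the most basophil transcripts, and 2 without all libraries numbered 1.

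**Figure D2:**
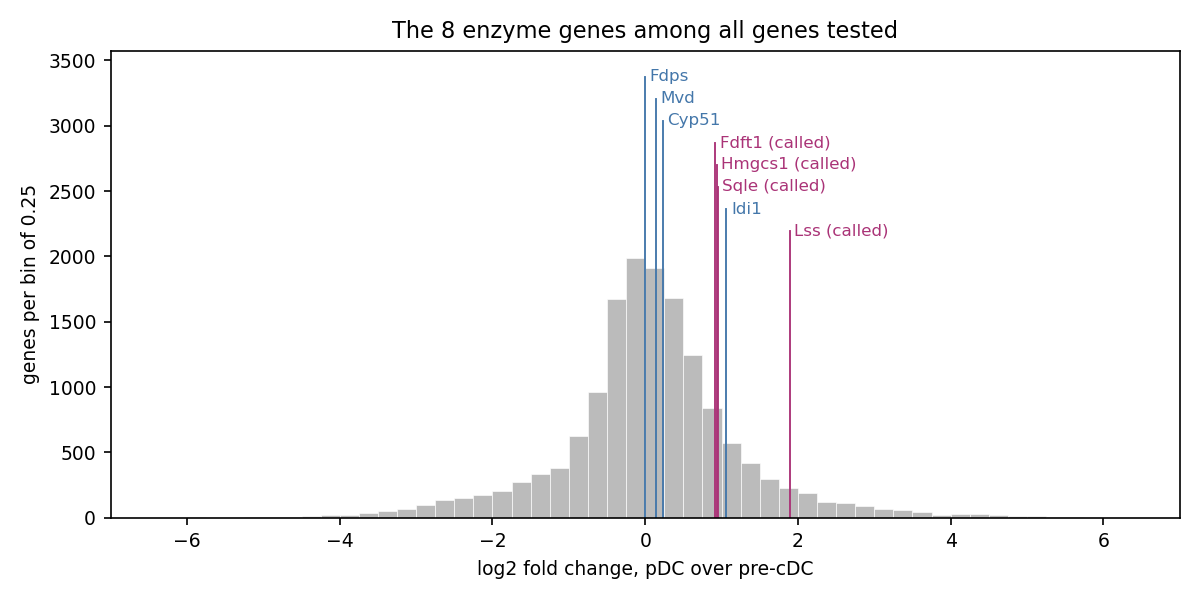
Histogram of the log2 fold change of pDC over pre-cDC (horizontal axis) for the 15293 genes tested, in bins of 0.25 (vertical axis, number of genes), with a vertical line for each of the 8 enzyme genes. Line heights only separate the names. Lss stands at 1.89, Hmgcs1, Fdft1 and Sqle at 0.92 to 0.95, and Fdps, Mvd and Cyp51 at -0.001 to 0.23 in the bulk of the genes.

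No single step between neighbouring populations carried a called change. edgeR called 0 of 8 for lo-lo over pre-cDC (3.16% of all genes called), with 5 of 8 at an unadjusted p under 0.05, and 0 of 8 by DESeq2. For lo-hi over lo-lo the counts were 0 of 8 (5.17% of all genes), 2 of 8 and 0 of 8, and for pDC over lo-hi 0 of 8 (0.961% of all genes), 1 of 8 and 0 of 8. The shares of all genes at the unadjusted cutoff were not counted for these steps, so that the unadjusted counts have no background beside them. The median log2 difference of the 8 genes was 0.42 for lo-lo over pre-cDC, 0.32 for lo-hi over lo-lo and 0.05 for pDC over lo-hi, with 7, 7 and 5 of 8 genes above 0. All 3 libraries stood above all 3 in 4 of 8 genes for lo-lo over pre-cDC (12.4% of all genes), 3 of 8 for lo-hi over lo-lo (13.6%) and 1 of 8, Lss, for pDC over lo-hi (8.27%), where Cyp51 lay below (9.1%). The corresponding medians of all genes were 0.04, 0.01 and 0.03. Lss had the largest difference of the 8 in both the step from pre-cDC to lo-lo (0.98 ± 0.30, adjusted p = 0.053) and that from lo-hi to pDC (0.57 ± 0.24, adjusted p = 0.33). These comparisons share libraries and are not independent.

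The 8 genes did not follow each other equally. Pearson's r of a gene's log2 CPM with the mean of the other 7 over the 12 libraries was 0.96 for Fdft1, 0.93 for Sqle, 0.92 for Hmgcs1 and 0.86 for Lss. It was 0.61 for Cyp51, 0.50 for Idi1, 0.30 for Mvd and 0.08 for Fdps. These values are descriptions over libraries that share 4 populations and mouse sources. Hmgcs1, Fdft1, Sqle and Fdps were each highest in library 1 within all 4 populations.

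The remaining 13 enzymes of cholesterol synthesis were counted from a list chosen by function, with earlier results of these data known. edgeR called 7 of the 13 over the 4 populations (19.9% of all genes), and the same number between pDC and pre-cDC, 6 higher (11.4%) and 1 lower (10.4%). DESeq2 called 6 over the 4 populations and 7 between pDC and pre-cDC. Pmvk, phosphomevalonate kinase, rose from 31.2 ± 3.1 CPM in pre-cDC to 67.6 ± 10.9 in pDC (SD, n = 3), with adjusted p = 1.20e-05. On the part of the pathway after lanosterol, Msmo1, a C4-methyl sterol oxidase, rose from 36.1 ± 2.5 to 100 ± 25 (2.80-fold, adjusted p = 5.08e-07). Hsd17b7 rose 2.58-fold, Sc5d 1.99-fold and Dhcr7, a reductase late in the pathway, 2.61-fold. Over the 4 populations Hsd17b7 did not pass with DESeq2 (adjusted p = 0.0116). It also did not pass with edgeR without any 1 of the pre-cDC libraries (adjusted p = 0.0122 to 0.0297). Sc5d did not pass with edgeR without pre-cDC 3 or without pDC 1 (adjusted p = 0.016 and 0.0195). Pmvk, Msmo1 and Dhcr7 passed without any 1 library.

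Lbr went the other way, from 426 ± 58 CPM in pre-cDC to 193 ± 13 in pDC (log2 fold change -1.14 ± 0.14, adjusted p = 5.37e-07). Lbr encodes the lamin B receptor, a protein of the inner nuclear membrane with sterol C14-reductase activity. Tm7sf2, which encodes the other C14-reductase, measured 25.5 ± 2.8 in pre-cDC and 25.6 ± 5.6 in pDC. Mvk, Acat2, Nsdhl and Ebp did not pass either. Over the whole pathway of 21 enzymes, 10 were called higher (11.4% of all genes) and 1 lower (10.4%) in pDC than in pre-cDC, with a median log2 fold change of 0.92.

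**Figure D3:**
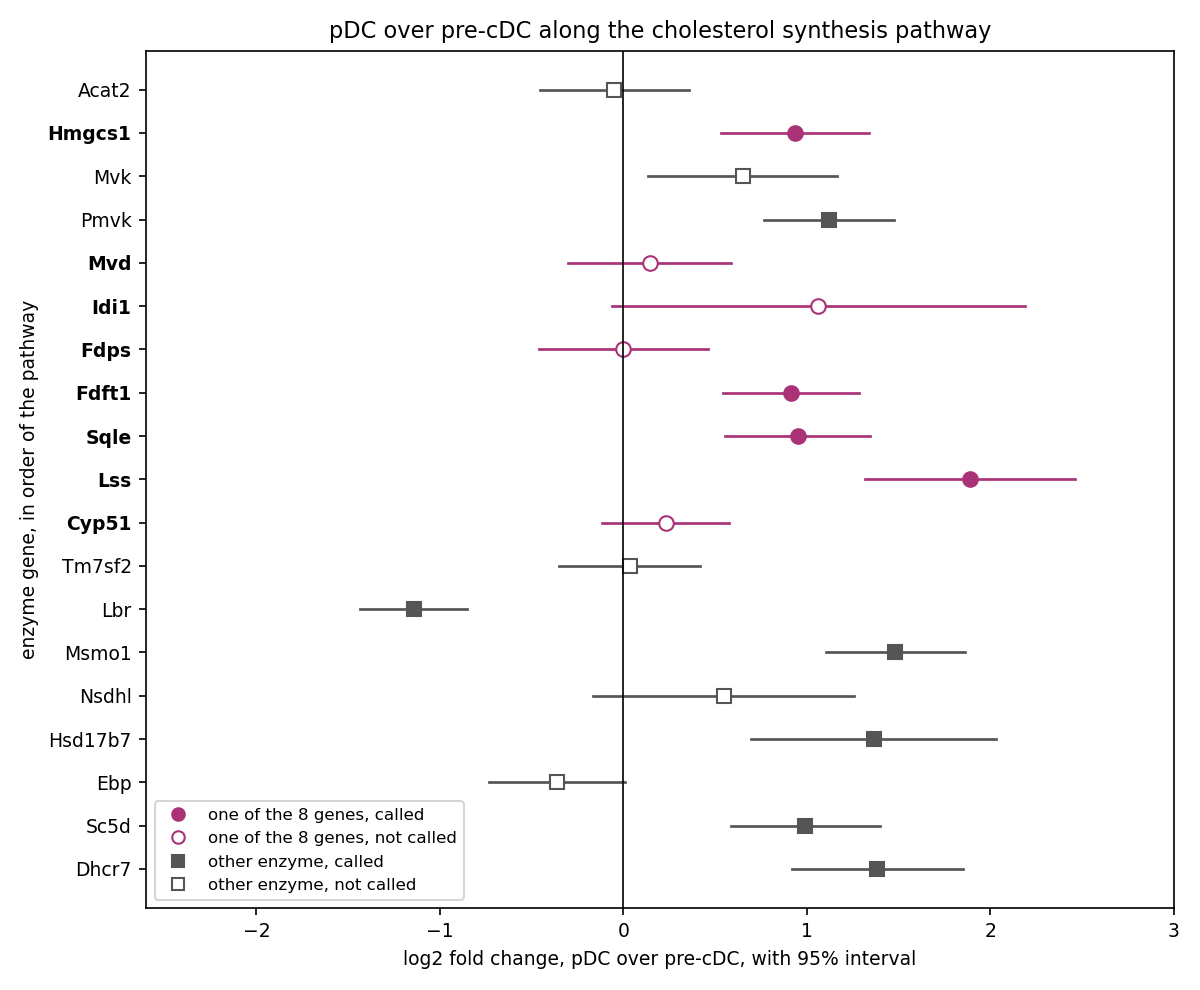
Log2 fold change of pDC over pre-cDC with its 95% interval (horizontal axis) for 19 of the 21 enzyme genes from acetyl-CoA at the top to cholesterol at the bottom (vertical axis). Circles are the 8 genes described here and squares 11 of the other 13, and filled symbols were called by edgeR. Filled symbols lie to the right of 0 for 9 genes and to the left for Lbr alone.

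Among 7 genes of the SREBP pathway, which controls these enzymes, 3 were called over the 4 populations (19.9% of all genes). Scap, the sterol-sensing escort protein of SREBP, rose from 25.6 ± 4.7 CPM in pre-cDC through 45.7 ± 3.7 in lo-lo and 71.6 ± 5.6 in lo-hi to 88.4 ± 8.8 in pDC (3.50-fold, adjusted p = 6.46e-09). Insig1, which retains Scap in the endoplasmic reticulum and is itself an SREBP target, rose from 31.0 ± 3.8 through 40.3 ± 9.8 and 69.9 ± 9.6 to 97.9 ± 16.2 (3.15-fold, adjusted p = 1.48e-07). Srebf2, the gene of SREBP2, went from 42.9 ± 5.9 to 68.6 ± 5.4 (1.60-fold, adjusted p = 0.00161). Srebf1 measured 16.8 ± 1.3 in pre-cDC and 21.6 ± 1.8 in pDC and did not pass (adjusted p = 0.18). Insig2 and Mbtps1 did not pass either, and Mbtps2, named after its values were seen, passed between pDC and pre-cDC alone of the 6 pairs (log2 0.75, adjusted p = 0.0082).

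Other branches that draw on the same precursors were counted beside the 19.9% of all genes that edgeR called over the 4 populations. Their counts were not tested against that share. None of 9 genes that use farnesyl or isopentenyl diphosphate for prenylation, dolichol or ubiquinone was called by edgeR or DESeq2 over the 4 populations, and 0 of 9 had an unadjusted p under 0.05. The median log2 fold change of these 9 for pDC over pre-cDC was 0.09, beside 0.05 for all genes. Of 10 genes of fatty acid synthesis and desaturation, edgeR called 1 over the 4 populations (2 with the library number as a block), Elovl6, which elongates palmitate. Elovl6 lay at 18.8 ± 4.0 CPM in pre-cDC, 32.2 ± 0.9 in lo-lo, 43.4 ± 3.1 in lo-hi and 24.8 ± 3.1 in pDC, highest in lo-hi like Cyp51. Between pDC and pre-cDC edgeR called 2 of the 10 higher (11.4% of all genes). These were Fads1 and Fads2 (log2 0.68 and 1.18), named after their values were seen. DESeq2 called 0 of the 10 in that comparison. The median log2 fold change of the 10 was -0.04.

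Cell cycle genes moved beside the enzymes, in the other direction. All 20 genes of a proliferation list were called over the 4 populations (19.9% of all genes). All 20 were called lower in pDC than in pre-cDC (10.4% of all genes), with a median log2 fold change of -2.59. Top2a, which untangles DNA in dividing cells, went from 395 ± 56 to 67.2 ± 16.7 CPM, and Mcm7, Birc5, Plk1, Ccnb2 and Aurkb were the next 5 by p. Between lo-lo and pre-cDC 0 of the 20 were called (3.16% of all genes), with a median log2 difference of -0.05, beside 0.42 for the 8 enzyme genes. For lo-hi over lo-lo 20 of the 20 were called, all lower (5.17% of all genes called in either direction), with medians of -1.24 and 0.32. For pDC over lo-hi 12 of the 20 were called, all lower (0.961% in either direction), with medians of -1.25 and 0.05. The part of cell division in the enzyme values was not tested. The list was drawn up with earlier results of these data known.

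**Figure D4:**
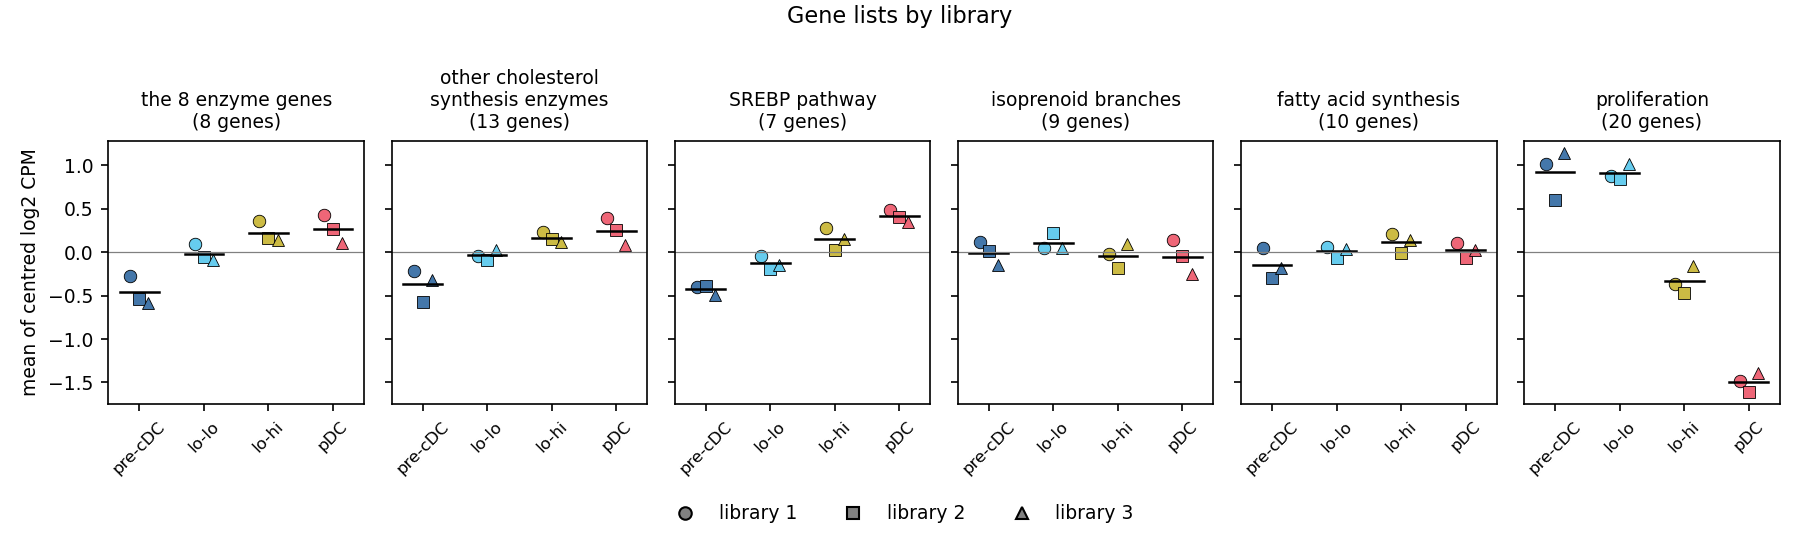
Mean over each list of log2 CPM, every gene centred on its own mean over 12 libraries (vertical axis), by population (horizontal axis), with symbols for libraries 1 to 3 and bars for the mean of 3. The 8 enzyme genes go from -0.47 ± 0.17 in pre-cDC to 0.27 ± 0.16 in pDC (SD, n = 3), the SREBP pathway from -0.43 to 0.41 and proliferation from 0.92 to -1.50, while the isoprenoid and fatty acid lists have means between -0.14 and 0.11.

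The 10 genes most like the 8 in their pattern had Pearson's r of 0.96 to 0.98 with the mean profile of the 8 over 12 libraries, out of 9186 genes whose mean count reached 20. They were, in order, Fads3, Selenos, Galk1, Aacs, Adpgk, Selenow, Hibadh, Ptpn1, Farp1 and Rftn1. Aacs, acetoacetyl-CoA synthetase, supplies cytosolic acetoacetyl-CoA, the substrate of Hmgcs1, and went from 16.5 to 36.9 CPM between pre-cDC and pDC. Of the 13 other enzymes, Msmo1 ranked highest, at place 20 (r = 0.96), and Scap stood at place 94 (r = 0.93). The ranking describes likeness alone, over libraries that share their populations.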

How the data were processed

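RNA of 12 libraries was read by SCRB-seq, a 3' protocol with molecular identifiers. The authors filtered barcodes and identifiers with zUMIs, mapped reads to mm10 with STAR 2.5.2b and assigned them to Ensembl genes of GRCm38. The deposited table holds raw counts, whole numbers without scaling, of 21754 genes. Whether counting used strand is not given in the sources used here. From these counts, genes with a mean of at least 1 were kept (15293, with 6461 left out) and tested with edgeR 4.0.16 in R 4.3.3 (TMM scaling, robust quasi-likelihood fit, all 12 libraries, no covariate, two-sided). The 4 populations were tested jointly and in 6 pairs, with Benjamini-Hochberg adjustment over all genes and a cutoff of 0.01. The study's design was kept, and its DESeq2 test is an alternative (DESeq2 1.42.0). Standard errors are those of log2 fold changes. The code was tested on simulated data with 200 changed genes. Log2 CPM used a prior count of 1.

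Populations follow the rank match of wells, and the deposited labels are an alternative. Named genes are the 8 enzymes, genes of each list past 0.01 over the 4 populations (up to 6 a list by p) and the 10 genes most alike. Members and lists were chosen with earlier results of these data known. The lists without a result above were B lineage (0 of 5 called by edgeR and DESeq2, 1 at an unadjusted p under 0.05), T and NK (0 of 3 tested by both, 1) and erythroid and platelet markers (0 of 5 by both, 0). Floors of 3 counts cover counting error only. Alternatives were other size factors, filters and cutoffs, DESeq2, a replicate block and leaving out each library, and, chosen after seeing the data, leaving out groups of libraries. Some genes counted in the lists are not reported by name here.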

Additional observations from a re-analysis of the deposited data

How the results depend on the processing

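The 4 enzyme genes called between pDC and pre-cDC were 4 without any 1 of the 12 libraries, with DESeq2's size factors or tests, with either other filter and at a cutoff of 0.05. Over 48 gene comparisons, 757 of 810 values under alternatives kept direction and side of 0.01, 25 lost the call, 1 gained it and 27 turned direction, none of these among the 9 called comparisons. With libraries grouped by the deposited labels, the count fell from 4 to 0 over the 4 populations, from 4 to 0 for pDC over pre-cDC and for lo-hi over pre-cDC, from 1 to 0 for pDC over lo-lo, and from 3043 to 0 over all genes. For pDC over lo-lo the count of 1 (Lss) became 0 without a filter and with DESeq2, and 2 at a cutoff of 0.05. For lo-hi over pre-cDC DESeq2 called 2 of 8. Leaving out 1 library each gave 2 to 4 over the 4 populations (2 without pre-cDC 3), 0 to 1 for pDC over lo-lo (Lss lost without any lo-lo or pDC library or lo-hi 1, while Hmgcs1 passed at an edgeR adjusted p of 0.00869 without pDC 3) and 0 to 4 for lo-hi over pre-cDC (2 without pre-cDC 2, 1 without pre-cDC 3 and 0 without lo-hi 1). Fewer libraries enter these fits. The cause was not tested otherwise.

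Chosen after seeing the data, leaving out pre-cDC 1 and 2, rich in basophil transcripts, left 3 called over the 4 populations, 2 for pDC over pre-cDC and 1 for lo-hi over pre-cDC, with the lone pre-cDC library assumed to vary like the other groups. Leaving out all libraries numbered 1 gave 1, 2, 0 and 0 (4 populations, pDC over pre-cDC, pDC over lo-lo, lo-hi over pre-cDC) and 1765 genes in all. Leaving out those numbered 2 gave 1, 3, 0 and 0, and those numbered 3 gave 3, 4, 0 and 1.

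A replicate block left all counts of enzyme genes as they were (4, 4, 4 and 1) and raised the genes called from 3043 to 3730. Among the lists it raised the counts over the 4 populations from 3 to 5 for uptake, transport and storage, from 1 to 2 for LXR and efflux and from 1 to 2 for fatty acid synthesis, and from 0 to 2 for the other 13 enzymes in lo-lo over pre-cDC. Whether a number marks 1 mouse is not stated in the sources used here. Y-linked transcripts mark all libraries numbered 3. Deviations from the population means of same-numbered libraries correlated at -0.11 to 0.25, not all above 0.1, with a mean of 0.096 over 18 pairs. Pairs with other numbers correlated at -0.26 to 0.20, with a mean of -0.048 over 36 pairs. The main tests did not include the number.

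Turned directions were all in uncalled differences near 0. Fdps for pDC over lo-hi was at -0.016 with DESeq2's size factors, -0.011 with the stricter filter, -0.018 with DESeq2 and -0.029 with the block, and for lo-hi over pre-cDC at 0.005 with the block. Over leave-outs, log2 values ran from -0.10 to 0.087 for Mvd in lo-lo over pre-cDC, -0.078 to 0.26 in pDC over pre-cDC and -0.067 to 0.27 in pDC over lo-lo. For pDC over lo-hi they ran from -0.18 to 0.17 for Hmgcs1, -0.16 to 0.36 for Idi1, -0.38 to 0.22 for Fdps and -0.019 to 0.295 for Fdft1. Fdps ran from -0.42 to 0.21 in pDC over pre-cDC and from -0.18 to 0.13 in lo-hi over pre-cDC. Idi1 has no value under the stricter filter, which removes it. The median log2 difference of all genes ran from 0.008 to 0.048 over the 6 pairs with TMM and from -0.009 to 0.015 with DESeq2's size factors.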

Other observations

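Genes that bring cholesterol in, move it or store it did not follow the enzymes as a group. Of 9 such genes, edgeR called 3 over the 4 populations (19.9% of all genes). The count was 5 with the library number as a block and 4 by DESeq2. Npc1, which exports cholesterol from lysosomes, rose from 13.2 ± 3.3 CPM in pre-cDC through 35.2 ± 7.6 in lo-lo and 46.9 ± 9.2 in lo-hi to 63.8 ± 11.01 in pDC (SD, n = 3, 4.78-fold, edgeR adjusted p = 1.31e-08). Stard3, a carrier of sterol between membranes, rose from 53.3 ± 3.9 to 87.2 ± 8.9 (adjusted p = 0.00076, edgeR). Lipa, the lysosomal acid lipase, was lowest in lo-lo at 18.1 ± 1.1 and highest in pDC at 33.8 ± 4.5, and passed between these populations (adjusted p = 0.000797). Scarb1 and Soat1, named after their values were seen, fell by 0.66 and 0.84 on the log2 scale (adjusted p = 0.00586 and 0.00376), and they encode a lipoprotein receptor and an enzyme that esterifies cholesterol for storage.

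Of 7 genes of the LXR and efflux list, 6 were tested. edgeR called 1 over the 4 populations (19.9% of all genes), against 2 with the library number as a block and 2 by DESeq2. Abca1, which moves cholesterol out of the cell, gave 10 to 17 counts in each lo-lo library and 0 to 2 in each pDC library, and passed between lo-lo and pDC (adjusted p = 0.000146). The pDC counts are under the floor of 3 counts, so that no fold is given.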
